A study of Mus musculus with 4 samples.

Results

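The genes described here carry the mouse symbol Zfp followed by a number, a naming class made up mostly of C2H2 zinc finger proteins. They were chosen by name and by level: protein-coding rows of that name, leaving out Zfp36 (tristetraprolin, an RNA-binding protein with another kind of finger), were selected on a mean of at least 1 CPM (the count scaled by the library total) over the 4 libraries. Of 364 such rows, 262 passed and 102 did not, and 56 of those 102 had no read in any library. The 262 Zfp genes were part of 11640 genes of any kind at that level. The libraries hold polyadenylated RNA of RAW 264.7 cells, a mouse macrophage-like line transformed with Abelson leukaemia virus. The groups were Hnrnpul1-/- cells exposed to LPS, the lipopolysaccharide of bacterial outer membranes, at 100 ng/ml for 10 h, wild-type cells given the same LPS, untreated Hnrnpul1-/- cells and untreated wild-type cells, with 1 library each. The labels do not say whether the knockout line is a single clone.

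A C2H2 finger is a short loop folded round a zinc ion, and tandem arrays of such fingers read DNA, RNA or protein surfaces. In many of these proteins an N-terminal KRAB domain recruits the corepressor Trim28 (KAP1), which brings the histone methyltransferase Setdb1 and heterochromatin proteins to endogenous retroviruses and other bound sites. KRAB zinc finger genes arose by tandem duplication, differ greatly between mammals and lie in clusters, while many Zfp genes without KRAB are older single genes.

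Total counts ranged from 17045432 to 17909549 per library. Hnrnpul1, the targeted gene, had 350 counts in LPS-treated knockout and 3114 in LPS-treated wild type, against 447 in knockout and 5086 in wild type without LPS. All 8 macrophage markers listed were measured, and the 3 markers each of T cells, B cells, epithelium and fibroblasts had 0 to 5 reads in any library. Levels below are normalized CPM, that is counts scaled by library size with edgeR's TMM factors, and differences are log2 ratios of these levels with a 95% counting interval. A gene was called higher or lower where its ratio reached 2-fold and the interval left out no change. By this rule 1 of the 8 macrophage markers, Lyz2, was called lower in knockout under LPS, at -1.42. None of the 8 was called between untreated genotypes. With 1 library per group no ratio has a replicate check, intervals cover counting error only, and reads counted without molecular identifiers may be copies of 1 molecule.

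The Zfp genes were weakly expressed as a group. Their median mean CPM was 10.4, against 34.9 over all genes measured, 126 of the 262 lay under 10 CPM and 7 reached 100 CPM. Together they took 0.511% of the counts in LPS-treated knockout and 0.515% in LPS-treated wild type, against 0.660% in knockout and 0.636% in wild type without LPS (Wilson 95% limits within 0.508% to 0.664%). In normalized CPM, which allows for the shift in composition with LPS, the sums were 5689 and 5718 under LPS in knockout and wild type and 5915 and 5750 untreated in knockout and wild type. The members nearest the threshold were Zfp58, Zfp455 and Zfp973 inside it at 1.10, 1.14 and 1.17 CPM, and Zfp433, Zfp184 and Zfp677 outside it at 0.963, 0.950 and 0.933 CPM. Every library gave at least 1 CPM for 243 members, and 2 members, Zfp811 and Zfp964, were under 1 CPM in both untreated libraries and passed through the LPS-treated ones. In the other direction 6 members, Zfp473, Zfp58, Zfp786, Zfp951, Zfp969 and Zfp973, were under 1 CPM in both LPS-treated libraries and passed through the untreated ones. Of these 6, 2 enter the counts of genes called lower with LPS in knockout and 1 that in wild type.

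Per kilobase of gene model, 9 of the 10 highest members had no KRAB-like pattern. Zfp106, an RNA-binding protein, led with 38.0 normalized CPM per kb over the 4 libraries, followed by Zfp207 (BuGZ, a spindle assembly protein) at 34.7, Zfp706 (a small protein described in mouse embryonic stem cells as a translational repressor) at 32.1 and Zfp598 (the E3 ligase that marks collided ribosomes) at 27.8. Zfp710, Zfp91 (an E3 ligase of the alternative NF-kB pathway), Zfp146, Zfp445 (which keeps imprints methylated), Zfp830 and Zfp513 came next, between 24.4 and 14.2 normalized CPM per kb. Zfp445 was the KRAB gene among them. Their levels differed little between libraries: 8 of the 10 had LPS ratios within 1.5-fold in both genotypes, Zfp706 had -0.58 in knockout and -0.59 in wild type, and Zfp513 was called higher.

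The largest change with LPS was that of Zfp811, a KRAB gene with 13 fingers at chr17:32795676-32809853 on the minus strand (GRCm38). Zfp811 had 902 counts in LPS-treated knockout and 558 in LPS-treated wild type, against 0 in knockout and 0 in wild type without LPS. Both LPS-treated libraries thus held many reads and both untreated libraries none. Against a floor of 3 counts per library its LPS ratio was 362-fold in knockout and 230.1-fold in wild type, or 8.50 and 7.85 on the log2 scale. The lower counting limits, taken from the 0 counts themselves, were below these ratios, at 8.20 and 7.54. Of 11640 genes, 28 had no read in either untreated library, and Zfp811 was the 4th of these by counts in LPS-treated knockout and the only Zfp gene. The transcript shares 0.647% of its 50-base stretches with transcripts of other genes. Under LPS it stood at 56.0 normalized CPM in knockout and 36.3 in wild type, a log2 ratio of 0.62 (0.47 to 0.78) that is under 2-fold and was not called.

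Zfp811 lies in a run of 10 KRAB Zfp genes, and none of the other 9 was called higher with LPS. Zfp871, whose start is 21.6 kb downstream of that of Zfp811, had 859 counts in LPS-treated knockout and 825 in LPS-treated wild type, against 948 in knockout and 928 in wild type without LPS. Zfp799, 20.4 kb upstream, had 65 and 48 counts under LPS in knockout and wild type and 87 and 59 untreated in knockout and wild type. Neither was called. Gm26693, a noncoding gene on the opposite strand that starts 213 bases upstream of the RefSeq start of Zfp811, had 16 and 13 counts under LPS in knockout and wild type and 0 in both untreated libraries. Gm25555, an annotated ribosomal RNA copy inside Zfp811 on the same strand, had 16 and 11 counts under LPS in knockout and wild type and 0 in both untreated libraries. In the same run Zfp763 and Zfp101, more than 200 kb upstream, were called lower with LPS in both genotypes, and Zfp81 in wild type, where it had a log2 ratio of -1.33 (-1.70 to -0.97).

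**Figure D1:**
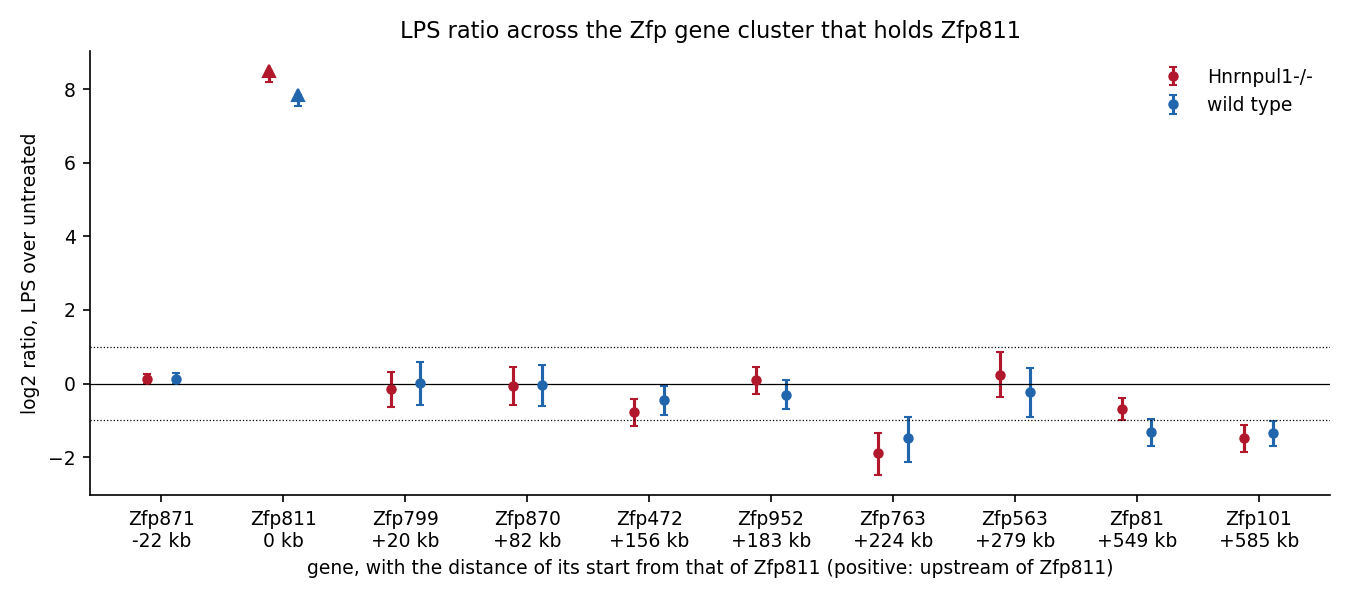
LPS log2 ratio in Hnrnpul1-/- (red) and wild-type (blue) cells for the 10 Zfp genes of the chromosome 17 run that holds Zfp811, in genome order, with 95% counting intervals; the triangles of Zfp811 are ratios against a floor of 3 counts. Zfp811 stands at 8.50 and 7.85, Zfp871 and Zfp799 beside it lie near 0, and Zfp763 and Zfp101 lie below -1 in both genotypes.

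The RefSeq promoter windows (GRCm38.p6, 250 bases before to 50 after the start, 5′ to 3′ along the gene) of the members with the highest LPS ratios, Zfp811 at chr17:32809882-32810181 on the minus strand and Zfp420 at chr7:29859762-29860061 on the plus strand, are shown because LPS-induced genes in macrophages are often driven by NF-kB and interferon-activated factors. Capitals mark a match to the interferon-response letters (GAAA, any 2 bases, GAAA), searched on both strands.
Zfp811: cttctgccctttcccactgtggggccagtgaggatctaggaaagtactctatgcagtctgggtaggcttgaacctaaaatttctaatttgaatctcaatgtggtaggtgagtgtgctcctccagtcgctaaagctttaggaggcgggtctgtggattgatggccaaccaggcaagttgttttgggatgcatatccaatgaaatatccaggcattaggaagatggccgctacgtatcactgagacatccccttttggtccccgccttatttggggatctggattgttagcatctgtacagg
Zfp420: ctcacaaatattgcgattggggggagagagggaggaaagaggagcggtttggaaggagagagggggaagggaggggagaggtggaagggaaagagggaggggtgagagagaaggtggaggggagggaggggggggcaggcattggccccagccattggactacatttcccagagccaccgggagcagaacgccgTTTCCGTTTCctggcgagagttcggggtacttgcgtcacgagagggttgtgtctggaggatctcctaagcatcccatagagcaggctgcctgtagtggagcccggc
The window of Zfp420 held 1 match, 56 bases before the start, and that of Zfp811 held none, nor any match to the STAT letters TTCNNNGAA or to the NF-kB consensus, a 10-letter motif with ambiguous positions. Windows with the interferon-response letters made up 3.44% of 32851 RefSeq windows and 1.82% of the 274 windows of 225 Zfp genes found in the table. For the STAT letters these shares were 8.30% and 15.7%, and for the NF-kB consensus 4.51% and 3.28%. The Zfp811 window held 5 CG dinucleotides, against a median of 16 over Zfp windows and 7 over all windows. A match is a description of letters and no evidence of binding.

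The other 4 genes called higher in both genotypes moved far less than Zfp811. Zfp420, whose human counterpart (APAK) is known as a KRAB protein that represses p53, has 19 fingers and no match to the KRAB-like pattern used below. It had 227 counts in LPS-treated knockout and 144 in LPS-treated wild type, against 64 in knockout and 61 in wild type without LPS. Its log2 ratio was 2.09 (1.69 to 2.52) in knockout and 1.55 (1.10 to 2.003) in wild type. Zfp513, whose human gene is mutated in a form of retinitis pigmentosa, had 858 and 735 counts under LPS in knockout and wild type and 390 and 362 untreated in knockout and wild type, with log2 ratios of 1.40 (1.23 to 1.58) and 1.33 (1.15 to 1.51). In both genes each LPS-treated library was above both untreated ones. Zfp513 overlaps Snx17 on the other strand, and whether reads were counted by strand is unknown here; Snx17 itself had log2 ratios of -0.16 in knockout and -0.15 in wild type. Zfp287 (141 and 141 counts under LPS in knockout and wild type, 80 and 75 untreated) and Zfp964 (35 and 22 under LPS, 16 and 13 untreated) were nearer the 2-fold line. On total counts Zfp287 had log2 ratios of 0.77 in knockout and 0.92 in wild type, and Zfp964 had 0.77 in wild type, so these calls were lost.

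Called higher in 1 genotype alone were Zfp703 and Zfp54 in knockout, at log2 ratios of 1.10 and 1.23, and Zfp719 and Zfp691 in wild type, at 1.03 and 1.00. In the other genotype the same 4 genes had 0.47, 0.90, 0.32 and 0.66, so all 4 lay above 0 in both. On total counts none of the 4 calls held, with 0.79 for Zfp703 and 0.91 for Zfp54 in knockout and 0.73 for Zfp719 and 0.71 for Zfp691 in wild type. With TMM factors 1345 of 11640 genes were called higher in knockout and 1309 of 11637 in wild type, with 1124 called higher in both. Zfp703, a corepressor of the NET family known in human breast cancer, had 384 counts in LPS-treated knockout and 219 in LPS-treated wild type, against 215 in knockout and 196 in wild type without LPS.

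The Zfp genes called lower with LPS were led by Zfp651. Zfp651 (Zbtb47, a BTB domain protein) had 71 counts in LPS-treated knockout and 94 in LPS-treated wild type, against 520 in knockout and 584 in wild type without LPS, and log2 ratios of -2.61 (-2.98 to -2.25) and -2.33 (-2.66 to -2.01). Zfp41 followed with 39 and 47 counts under LPS in knockout and wild type and 263 and 266 untreated in knockout and wild type, a log2 ratio of -2.49 in knockout and -2.19 in wild type. Zfp362 had 103 and 79 counts under LPS in knockout and wild type and 388 and 459 untreated, a log2 ratio of -1.65 in knockout and -2.23 in wild type. In these 3 genes the LPS-treated libraries held less than every untreated one by a wide margin. Zfp652, a partner of the ETO-family corepressor CBFA2T3 in human cells, was the most abundant of the falling genes, at 376 and 442 counts under LPS in knockout and wild type and 1494 and 1412 untreated in knockout and wild type. Zfp652 overlaps Abi3 on the other strand, which had log2 ratios of -0.99 in knockout and -0.80 in wild type, and shares 18.6% of its 50-base stretches with other transcripts.

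Zfp473 (ZFP100 in human), a component of the U7 machinery that forms the 3′ ends of replication-dependent histone mRNAs, had 9 counts in each LPS-treated library, against 53 in knockout and 36 in wild type without LPS. Its log2 ratio was -2.29 (-3.50 to -1.26) in knockout and -1.69 (-2.93 to -0.61) in wild type, and it overlaps Vrk3 on the other strand, which had -0.28 and -0.38. The KRAB genes Zfp759, Zfp763, Zfp69, Zfp398 and Zfp101 completed the 10 lowest, with log2 ratios between -1.90 and -1.49 in knockout and between -2.10 and -1.33 in wild type. Zfp69 is a candidate gene for hyperglycaemia in obese mice. The remaining 8 called lower in both genotypes were Zfp367, Zfp524, Zfp772, Zfp956, Zfp111, Zfp932, Zfp773 and Zfp60, down to a log2 ratio of -1.04. Zfp524 shares 46.7% and Zfp932 shares 37.0% of their 50-base stretches with other transcripts, so part of their counts is uncertain. Zfp524 also overlaps Fiz1 on the other strand, which had 0.47 and 0.35.

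Called lower in 1 genotype alone were 15 members in knockout and 3 in wild type, and all 18 lay below 0 in the other genotype too. In knockout the lowest were Zfp973, described with the genotype results, and Zfp931 at -1.45, and the others lay between -1.35 and -1.01. In wild type they were Zfp775, Zfp81 and Zfp974, the last at -1.15. Of 11640 genes in knockout 1398 were called lower and of 11637 in wild type 1180, with 995 called lower in both.

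**Figure D2:**
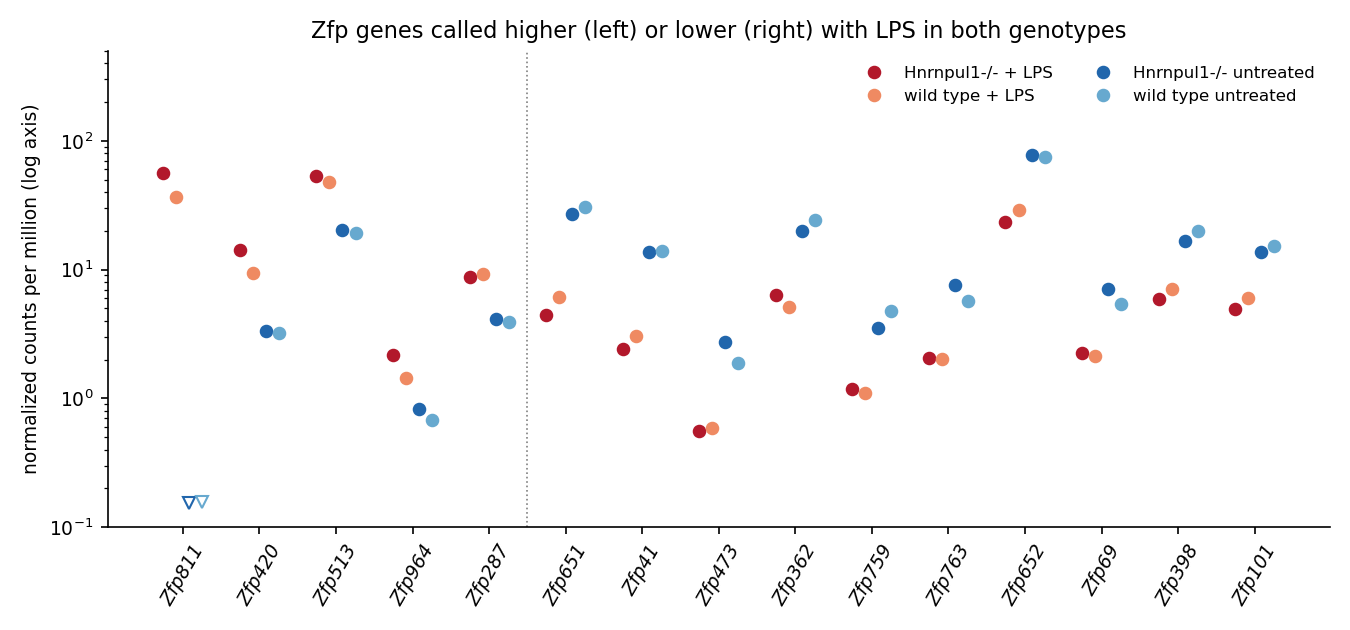
Normalized CPM (log axis) of the 5 Zfp genes called higher and the 10 lowest of those called lower with LPS in both genotypes, 1 point per library in the order of the legend; open triangles mark 0 counts, drawn at the level of 3 counts. In each gene both LPS-treated libraries lie on the same side of both untreated libraries, from 56.0 and 36.3 against 0 and 0 for Zfp811 to 4.41 and 6.12 against 26.8 and 30.7 for Zfp651. The choice of genes called in both genotypes largely fixes this separation.

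Zfp651 at chr9:121759783-121760082 on the plus strand and Zfp367 at chr13:64153150-64153449 on the minus strand are shown as windows of genes that fell (RefSeq, GRCm38.p6), the first as the lowest and the second for its matches to the E2F letters TTTNNCGC, which recur in genes of DNA replication. Capitals mark these matches, searched on both strands.
Zfp651: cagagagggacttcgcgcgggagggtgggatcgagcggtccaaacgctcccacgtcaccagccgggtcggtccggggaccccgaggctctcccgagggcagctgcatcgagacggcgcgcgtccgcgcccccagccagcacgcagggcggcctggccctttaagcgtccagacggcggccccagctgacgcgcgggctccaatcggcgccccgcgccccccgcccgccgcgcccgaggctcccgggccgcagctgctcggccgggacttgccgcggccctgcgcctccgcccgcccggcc
Zfp367: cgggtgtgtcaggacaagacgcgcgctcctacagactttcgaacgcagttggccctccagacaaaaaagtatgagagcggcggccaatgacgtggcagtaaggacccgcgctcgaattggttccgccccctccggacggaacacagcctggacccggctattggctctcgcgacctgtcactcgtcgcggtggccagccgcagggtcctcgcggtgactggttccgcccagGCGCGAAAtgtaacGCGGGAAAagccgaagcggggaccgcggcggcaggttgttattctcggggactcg
The window shown for Zfp367 had 2 matches, 19 and 5 bases before the start, and that of Zfp651 had none. A second RefSeq window of Zfp367, at chr13:64152324-64152623, had 1 match, 90 bases before its start. Zfp367 had 247 and 215 counts under LPS in knockout and wild type and 728 and 750 untreated in knockout and wild type, with log2 ratios of -1.29 and -1.50. The letters occur in 5.17% of all windows and in 10.2% of Zfp windows. Of the 18 genes called lower in both genotypes, 15 had windows, 21 in all, and Zfp367 was the 1 gene among these 15 with the E2F letters. The STAT letters were in 6 of the 21 windows, from 5 genes, or 28.6%, against 15.7% of Zfp windows and 8.30% of all windows. Neither the interferon-response letters nor the NF-kB consensus was in any, and only 1.82% and 3.28% of Zfp windows hold them. The letters TTTGAA, known from cell cycle genes, were in 3 of the 21, or 14.3%, against 13.9% of Zfp windows and 17.9% of all windows, and ACTACAA in 1, or 4.76%, against 6.20% and 3.24%.

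Over all 262 members, 7 were called higher and 33 lower with LPS in knockout, where 11.6% of all genes were called higher and 12% lower. In wild type 7 were called higher and 21 lower, against 11.2% higher and 10.1% lower of all genes. As shares of the members these are 2.67% higher and 12.6% lower in knockout and 2.67% higher and 8.02% lower in wild type: calls upward were rarer than over all genes, and calls downward stood near the share of all genes. Called in both genotypes were 5 higher and 18 lower, or 1.91% and 6.87% of members, where 9.66% of all genes were higher in both and 8.55% lower in both. The 18 are 54.5% of the members called lower in knockout and 85.7% of those in wild type. Over all genes the same shares were 71.2% and 84.3%. No member was called in opposite directions, against 3 of all genes. Scaled to total counts, where the median of all genes shifts to -0.33 in knockout and -0.30 in wild type, the calls were 4 higher and 57 lower in knockout and 3 higher and 43 lower in wild type. Of all genes 8.50% were then called higher and 18.5% lower in knockout, and 8.38% and 16.4% in wild type.

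**Figure D3:**
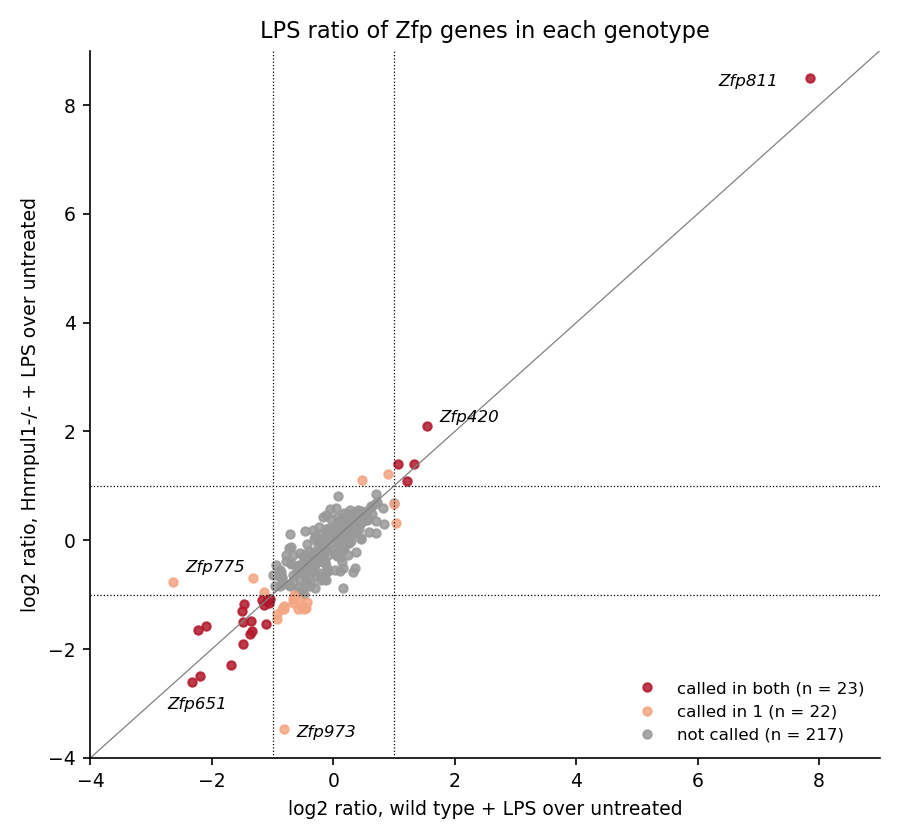
LPS log2 ratio of each Zfp gene in Hnrnpul1-/- cells (vertical) against that in wild-type cells (horizontal), for 262 genes; dotted lines mark 2-fold, and Zfp811 is plotted at its ratio against 3 counts. Genes called in both genotypes (23) lie along the diagonal, 217 genes called in neither crowd round 0, and Zfp973 and Zfp775 lie off the diagonal at low counts.

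The LPS ratios in knockout and in wild type, which share no library, went together across members (Pearson r = 0.90 over 262 genes, 0.83 without Zfp811), as they did across all genes (0.94). Both ratios were above 0 for 83 members and below 0 for 126. The median member had a log2 ratio of -0.16 in knockout and -0.12 in wild type, against -0.02 and -0.0039 over all genes. The difference between the members' median and that of all genes was -0.14 in knockout and -0.11 in wild type, which scaling by library factors cannot alter, and -0.09 and -0.07 in the deposited FPKM as log2(value + 1). This shift lay among the weakly expressed members. Of the 126 under 10 CPM the median was -0.40 in knockout and -0.32 in wild type, against -0.17 and -0.13 over all genes under 10 CPM, while the 136 at 10 CPM or more had -0.02 and -0.0030, against 0.01 and 0.02 over all genes of that level.

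Members with a KRAB-like pattern had a lower median LPS ratio than the others, and they were also less expressed. A KRAB-like pattern was found in the translated coding sequence of 148 members, which had a median of 12 fingers and 7.29 CPM, and not in 114, which had 7 fingers and 23.1 CPM. The pattern can miss a divergent domain. With the pattern the median log2 ratio was -0.28 in knockout and -0.21 in wild type, with 3 members called higher and 22 lower in knockout and 3 higher and 11 lower in wild type. Without it the medians were -0.03 in both genotypes, with 4 higher and 11 lower in knockout and 4 higher and 10 lower in wild type. As shares, 2.03% with the pattern were called higher in each genotype, and 14.9% lower in knockout and 7.43% in wild type. Without it these were 3.51%, 9.65% and 8.77%. Of all genes 11.6% were called higher and 12% lower in knockout, and 11.2% and 10.1% in wild type. Under 10 CPM 18.4% with the pattern were called lower in knockout and 7.14% in wild type, against 21.4% in both without it. Of all genes under 10 CPM these were 21.3% and 17.2%. Among members under 10 CPM the medians were -0.41 and -0.32 with the pattern (98 genes) and -0.33 and -0.30 without (28 genes), and at 10 CPM or more they were -0.07 and -0.03 with it (50 genes) and 0.02 and -0.0030 without (86 genes). The part of expression level in the difference between both kinds was not tested beyond these values.

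**Figure D4:**
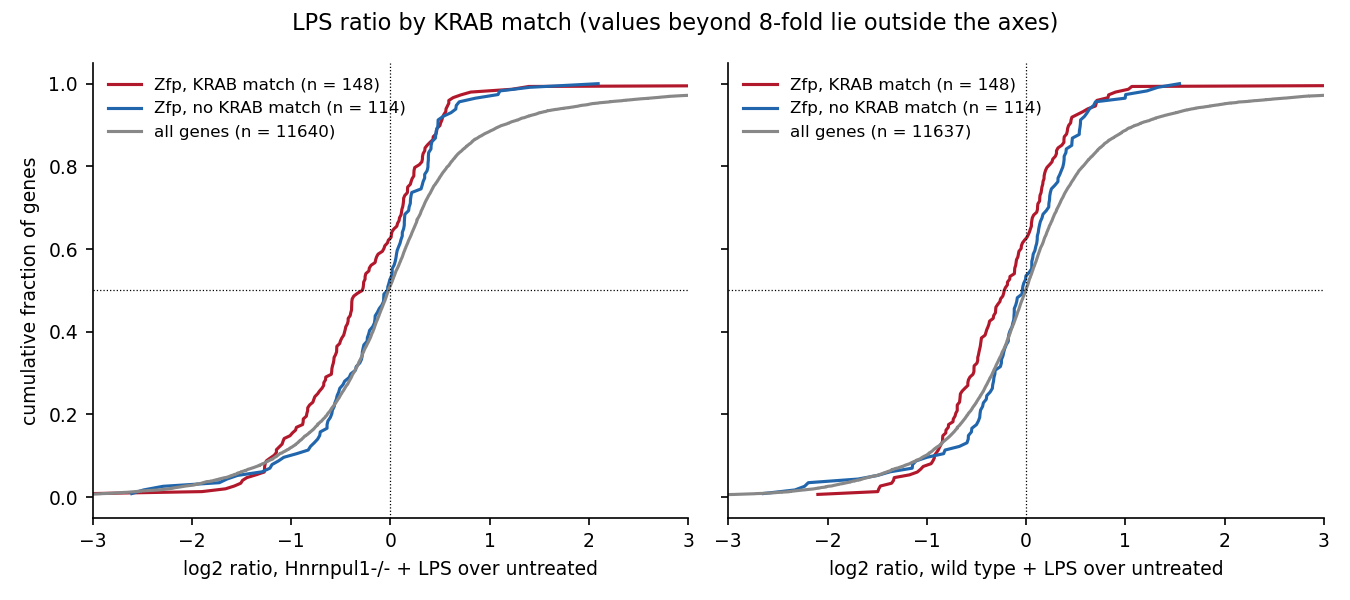
Cumulative fraction of genes by LPS log2 ratio in Hnrnpul1-/- (left) and wild-type (right) cells, for Zfp genes with (red) and without (blue) a KRAB-like pattern and for all genes (grey). The red curve crosses the middle at -0.28 and -0.21 and the blue one at -0.03 in both panels, and both Zfp curves end well short of the upward tail of all genes apart from Zfp811.

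By finger number the medians were -0.05 in knockout and -0.04 in wild type for 48 members with up to 5 fingers, -0.16 and -0.12 for 85 with 6 to 10, -0.32 and -0.19 for 82 with 11 to 15, and -0.12 and 0.03 for 47 with more than 15. The order was thus not continued by the longest arrays. The median member had 10 fingers and the longest array 36, and 4 members had no standard C2H2 pattern, Zfp703 among them.

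In the genome 110 members lay in 15 clusters of at least 4 members with starts within 250 kb of the next, and chromosome 7 held 71 members and chromosome 17 held 35. Clusters differed in their LPS ratios. The largest, 15 KRAB genes at chr17:21423227-22456689, had a median of 0.17 in knockout and 0.19 in wild type, with Zfp54 called higher in knockout. The 13 members at chr7:29768552-30169750, which include Zfp420 and Zfp146, had 0.20 and 0.12. The 13 KRAB genes at chr13:67038596-67729173 had -0.54 and -0.21, with Zfp759 called lower in both genotypes. The 5 members at chr7:27731389-28014115, Zfp60 among them, had the lowest medians, -0.81 and -0.74. Over all clusters the median was -0.26 in knockout and -0.11 in wild type, against -0.14 and -0.12 for the 152 members outside them. Of the 18 members lower in both genotypes, 10 lay in clusters and 10 had the KRAB-like pattern, on 9 chromosomes in all. Of all 262 members 110 lay in clusters and 148 had the pattern.

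Loss of Hnrnpul1, an hnRNP U-like RNA-binding protein, went with few called differences among Zfp genes, as over all genes. Under LPS 4 members were called higher in knockout and 1 lower, or 1.53% and 0.382%, where 1.66% of all genes were higher and 1.83% lower. Untreated, 2 were called higher and 0 lower, or 0.766% and 0%, against 1.16% higher and 0.864% lower of all genes. As no replicate exists, no unadjusted p goes with that 0. The median member had a log2 ratio of 0.0069 under LPS and 0.07 untreated, against 0.0013 and 0.0070 over all genes. Above 0 lay 51.5% of members under LPS and 63.6% untreated, against 50.2% and 52.0% of all genes. Within 1.5-fold lay 239 members under LPS and 252 untreated, or 91.2% and 96.6%, against 89.2% and 93.3% of all genes. The 6 members called in either treatment had a mean of 1.17 to 9.55 CPM, and 5 of them had the KRAB-like pattern. Of all 262 members 148 had that pattern, and of the 126 under 10 CPM 98 had it.

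Zfp985, a KRAB gene at chr4:147553277-147585198 on the plus strand, was the member called in both treatments. It had 226 counts in LPS-treated knockout and 86 in LPS-treated wild type, and 241 in knockout and 114 in wild type without LPS. Each knockout library was thus above both wild-type ones, with log2 ratios of 1.33 (0.96 to 1.70) under LPS and 1.05 (0.72 to 1.39) untreated, while LPS moved it little in either genotype (0.17 and -0.10). Called in both treatments were 0.346% of all genes in the higher and 0.329% in the lower direction, and 1 and 0 of the Zfp genes. Zfp985 shares 15.9% of its 50-base stretches with other transcripts, so some of its reads may belong to relatives.

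Zfp560 was close behind, with 241 counts in LPS-treated knockout and 86 in LPS-treated wild type, and 215 in knockout and 119 in wild type without LPS. Its log2 ratio was 1.42 (1.06 to 1.79) under LPS, where it was called, and 0.83 (0.50 to 1.16) untreated, where it was not. Zfp93 had 45 counts in knockout and 16 in wild type without LPS, a log2 ratio of 1.46 (0.61 to 2.39), and 41 and 21 under LPS. Zfp599 had 39 counts in LPS-treated knockout and 18 in LPS-treated wild type, at 1.05 (0.21 to 1.94). An additive genotype and LPS model over all genes, fitted with edgeR's quasi-likelihood test on 1 residual degree of freedom, gave an adjusted p of 0.015 for Zfp985 and 0.032 for Zfp560 and also one of 0.020 for Zfp346, an RNA-binding protein at log2 ratios of 0.69 under LPS and 0.54 untreated. This model takes the absence of an interaction as its measure of error and is no substitute for replicates.

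**Figure D5:**
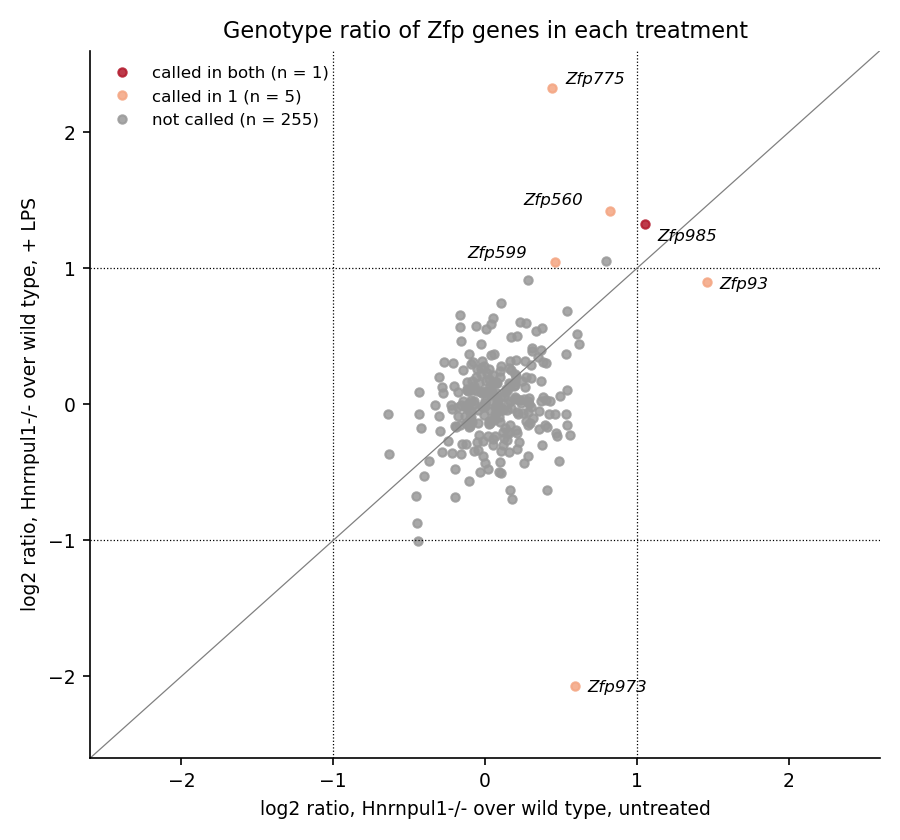
Genotype log2 ratio (Hnrnpul1-/- over wild type) of each Zfp gene under LPS (vertical) against that in untreated cells (horizontal); dotted lines mark 2-fold, and grey points past a line had counting intervals that reach no change. Zfp811, with 0 counts in both untreated libraries, is not drawn. Zfp985 is the point called in both treatments, 5 points were called in 1 treatment and 255 in neither.

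The LPS ratio itself differed between genotypes by a called amount for 2 members, both at low counts. Zfp775 had 21 counts in LPS-treated knockout and 4 in LPS-treated wild type, and 43 in knockout and 31 in wild type without LPS, a difference in log2 LPS ratio of 1.88 (0.20 to 3.56). Zfp973 had 3 and 12 counts under LPS in knockout and wild type and 40 and 26 untreated in knockout and wild type, a difference of -2.66 (-4.62 to -0.70). Of all genes 1.19% were called upward and 1.84% downward in this difference, and 1 and 1 of the Zfp genes. Zfp973 overlaps Gm14305 and shares 84.7% of its 50-base stretches with other transcripts, so its counts cannot be assigned firmly. These same libraries give the genotype calls of Zfp775 (2.32 under LPS) and Zfp973 (-2.07 under LPS).

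Members with well-studied roles were taken as lists of 4 to 17 measured genes each. With LPS 11.6% of all genes were called higher and 12% lower in knockout, and 11.2% and 10.1% in wild type. Lists this small give no rate to set against these shares. Of 9 names known for control of retroelements or imprints, 6 were measured, and of these Zfp932, which represses endogenous retroviruses in mouse cells, was called lower with LPS in both genotypes, with 83 and 87 counts under LPS in knockout and wild type and 217 and 230 untreated. Zfp809, which silences murine leukaemia provirus through the primer binding site, had 465 and 462 counts under LPS in knockout and wild type and 571 and 485 untreated in knockout and wild type, with log2 ratios of -0.03 and 0.24. Zfp638 (NP220, a silencer of unintegrated retroviral DNA) had -0.13 and 0.12, Zfp568 (a repressor of a placental Igf2 promoter) 0.20 and 0.42, Zfp445 -0.06 and 0.26, and Zfp689 -0.57 and -0.08. The imprint protector Zfp57, the stem cell marker Zfp42 and the retroelement regulator Zfp708 had at most 3 reads in any library.

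Of the 136 members at 10 CPM or more, 2.21% were called higher and 6.62% lower with LPS in knockout. In wild type these shares were 2.21% and 5.88%, and none of the 136 was called between genotypes. Of all genes at that level 10.4% were called higher and 9.01% lower with LPS in knockout, and 10.0% and 7.85% in wild type. Between genotypes 0.477% of them were called higher and 0.682% lower under LPS, and 0.308% and 0.182% untreated. Among the 17 measured partners of transcription and chromatin, all at that level, no call was made in any of the 4 comparisons. Their median LPS ratio was 0.06 in both genotypes and turned to -0.26 in knockout and -0.24 in wild type on total counts, where Zfp148 was called lower in knockout (-1.02). Zfp148 was lowest with LPS, at log2 ratios of -0.71 in knockout and -0.55 in wild type, and Zfp335, a regulator of T cell maturation and brain growth, was highest at 0.66 and 0.68. Zfp281 had 0.39 and 0.38, Zfp609, a partner of the cohesin loader, had 0.48 and 0.32, and Zfp410, a regulator of Chd4, had -0.15 and 0.16. Likewise none of the 10 measured members that act on RNA, ribosomes, the spindle or ubiquitin, all at 10 CPM or more, was called. Among them Zfp622, of ribosome biogenesis, had 0.53 and 0.55 with LPS, and Zfp326, which couples elongation to splicing, had -0.61 and -0.23. Zfp593, a ribosome biogenesis factor, fell just under the threshold at 0.909 CPM. Of 4 measured differentiation factors, Zfp703 was called as above, though not on total counts. Zfp608, a regulator of Rag genes in thymocytes, had 128 counts in LPS-treated knockout and 224 in LPS-treated wild type, and 150 in knockout and 201 in wild type without LPS, with genotype ratios of -0.88 and -0.45 that were not called.

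The partners of KRAB proteins were measured beside them, from a list of 28 names of which 26 were measured. With LPS 1 was called higher and 6 lower in each genotype, or 3.85% and 23.1%, beside the 11.6% and 12% of all genes in knockout and 11.2% and 10.1% in wild type. The median was -0.43 in knockout and -0.41 in wild type. On total counts 0 were called higher, 9 lower in knockout and 10 lower in wild type, with medians of -0.74 and -0.71. Of all genes 8.50% were then called higher and 18.5% lower in knockout, and 8.38% and 16.4% in wild type. Trim28, the KRAB corepressor, had 3877 counts in LPS-treated knockout and 3731 in LPS-treated wild type, against 7931 in knockout and 7636 in wild type without LPS. Its log2 ratios of -0.77 and -0.73 were under 2-fold, and on total counts they were -1.08 and -1.02 and called. Setdb1 had 0.42 and 0.24. Called lower in both genotypes were the heterochromatin protein Cbx5 (-1.52 and -1.53), the histone methyltransferase Suv39h1 (-1.47 and -1.24), the DNA methyltransferases Dnmt1 (-1.31 and -1.32) and Dnmt3b (-1.08 and -1.42), and Trim24 (-1.23 and -1.45). Cbx3 was called lower in knockout (-1.19) and Uhrf1, the partner of Dnmt1, in wild type (-1.15). Hdac1 was called higher at 1.01 and 1.02 but not on total counts (0.70 and 0.72). No gene of the list was called between genotypes, and Atf7ip, the partner of Setdb1, came nearest, at -0.65 under LPS and -0.62 untreated.

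Proliferation moved with LPS beside these results. All 5 proliferation markers (Mki67, Top2a, Ccnb1, Cdk1 and Ccna2) were called lower, by log2 ratios of -2.61 to -1.21 in knockout and -2.70 to -1.43 in wild type, and none was called between genotypes. Their part in the lower level of Zfp genes and of the KRAB partners was not tested, and in bulk RNA fewer cells that express a gene and less RNA per cell cannot be told apart. In other zinc finger families, Zbtb genes (31) had 2 called higher and 3 lower with LPS in knockout and 2 and 2 in wild type, Zscan and Zkscan genes (16) had 1 higher and 0 lower in each genotype, and Zc3h genes (18), whose CCCH fingers bind RNA, had 4 higher and 1 lower in knockout and 5 and 1 in wild type. As shares of each family in knockout these are 6.45% higher and 9.68% lower for Zbtb, 6.25% and 0% for Zscan and Zkscan, and 22.2% and 5.56% for Zc3h, beside 11.6% and 12% of all genes. On total counts 8.50% of all genes were called higher and 18.5% lower in knockout, and 8.38% and 16.4% in wild type. Zbtb then had 1 higher and 7 lower in knockout and 0 and 6 in wild type. Zscan and Zkscan had 0 and 2 in knockout and 0 and 1 in wild type, and Zc3h had 3 and 3 in knockout and 4 and 1 in wild type. Their medians were -0.19 and -0.14 for Zbtb, -0.19 and -0.16 for Zscan and Zkscan, and 0.06 and 0.16 for Zc3h, and on total counts -0.50 and -0.44 for Zbtb, -0.51 and -0.46 for Zscan and Zkscan, and -0.26 and -0.14 for Zc3h.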

How the data were processed

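RNA-seq files of 4 cell culture libraries, 1 per group, were used. The counts were deposited as unscaled whole numbers for each gene, and the deposited FPKM values are counts per length and per library constant, made by the authors. Per the submitters' processing notes, featureCounts 1.5.0-p3, HISAT2 2.0.5, CASAVA 1.8 and the build GRCm38 were used. For the strand setting of the counting, the sources used here give nothing. Library factors were computed with edgeR 4.0.16 (TMM) in R 4.3.3 over the genes whose CPM averaged 1 or more. In ratios a count of 0 was replaced by 3, and no ratio was given where both counts were 3 or less. Intervals are exact conditional (Clopper-Pearson) at 95%, and the genotype by LPS difference used a delta-method interval. The functions were tested on simulated data. The members and lists were chosen with earlier results of these data known. Named genes were up to 10 per direction called by LPS in both genotypes, all called in both treatments by genotype, up to 4 per direction in a genotype comparison and 3 in the genotype by LPS difference, the 10 highest per kilobase, 3 either side of the threshold, and members of lists. Zfp703, Zfp54, Zfp719, Zfp691, Zfp81, Zfp397, Zfp931, Zfp974, Zfp58, Zfp786, Zfp951, Zfp969 and the last 8 lower genes were named after their values were seen. Fingers and KRAB patterns were counted on translated GENCODE M21 coding sequences in place of the RefSeq proteins planned, and shared 50-base stretches on its transcripts. Of 262 members, 254 had the same coordinates there. The alternatives used total counts, size factors of DESeq2 1.42.0, other filters, other calling rules, FPKM and an additive edgeR model.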

Additional observations from a re-analysis of the deposited data

Results flagged for a closer look

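In 3 members the LPS log2 ratios had opposite signs in knockout and wild type with both counting intervals clear of 0. Zfp397 had 612 counts in LPS-treated knockout and 744 in LPS-treated wild type, and 886 in knockout and 780 in wild type without LPS, with LPS ratios of -0.27 in knockout and 0.24 in wild type and a difference of -0.51. For Zfp638 the ratios were -0.13 and 0.12 (difference -0.25), and for Zfp106 -0.07 and 0.10 (difference -0.16). All 3 are under 1.5-fold in every comparison of libraries, each genotype has 1 library per treatment, and the difference was not tested against replicate spread.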

How the results depend on the processing

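No paired analysis was possible because the groups share 1 replicate number alone, and no library could be left out. Of the 41 calls of members named by the ranking rules, 30 were lost under at least 1 alternative. With the FPKM as log2(value + 1) 30 were lost, with the whole interval beyond 2-fold 16, and with log2(value + 0.1) 6. On total counts 3 were lost, and under DESeq2's size factors 0. The filters and the 1.5-fold rule leave a gene's ratio as it is. These 41 leave out members named from role lists or after their values were seen. Among the members left out, the calls of Zfp703, Zfp54, Zfp719 and Zfp691 were also lost on total counts. Under DESeq2's size factors no count of members moved by more than 1.5 times. On total counts 8.50% of all genes were called higher and 18.5% lower with LPS in knockout, and 8.38% and 16.4% in wild type. Among members LPS then gave 4 higher and 57 lower in knockout, with a median of -0.47. In wild type it gave 3 higher and 43 lower, with a median of -0.42, and in both genotypes 3 higher and 33 lower. At a mean CPM of at least 10 it gave 3 higher and 9 lower in knockout (median -0.016), 3 and 8 in wild type (median -0.0030) and 2 and 7 in both, with 0 members called in either direction in the genotype comparisons, in both treatments, or in the genotype by LPS difference. Of all genes at 10 CPM or more 10.4% were called higher and 9.01% lower with LPS in knockout, and 10.0% and 7.85% in wild type. By genotype these shares were 0.477% and 0.682% under LPS and 0.308% and 0.182% untreated. With a 1.5-fold rule LPS gave 16 higher and 66 lower in knockout, 19 and 49 in wild type and 13 and 38 in both. By size alone 67.2% of members and 58.4% of all genes lay within 1.5-fold with LPS in knockout, and 71.0% and 60.2% in wild type. Genotype then gave 12 higher and 4 lower under LPS, 5 and 1 untreated and 3 higher in both treatments, and the genotype by LPS difference 7 upward and 8 downward. With the whole interval beyond 2-fold LPS gave 3 higher and 11 lower in knockout, 3 and 9 in wild type and 3 and 7 in both, genotype 1 higher and 0 lower under LPS and 0 untreated, in both treatments 0, and the difference 0 in each direction. Without a filter on the mean CPM, genotype gave 2 lower under LPS, 4 higher and 1 lower untreated and 2 higher in both treatments, and the difference 2 downward. The FPKM as log2(value + 1), by the 2-fold size alone, gave 3 higher and 5 lower in knockout, 2 and 4 in wild type and 2 and 4 in both for LPS, and 0 for every genotype and difference count; this pseudocount shrinks the ratios of weak genes. Of all genes log2(value + 1) gave 8.66% higher and 6.22% lower with LPS in knockout, and 8.22% and 5.37% in wild type. By genotype it gave 0.455% and 0.412% under LPS and 0.206% and 0.120% untreated. As log2(value + 0.1), LPS gave 4 higher in wild type and 3 in both genotypes, and the difference 0 upward. Calls over all genes were not computed for log2(value + 0.1), the 1.5-fold rule, the whole-interval rule or the lifted filter. Those member counts thus have no background. The additive edgeR quasi-likelihood model called 6 members higher and 26 lower by LPS and 2 members higher by genotype at an adjusted p under 0.05 and 2-fold, Zfp985 and Zfp560. Of 11640 genes it called 1274 higher and 1233 lower by LPS, and 58 higher and 29 lower by genotype. Leaving out members that overlap a gene on the other strand or share over 50% of their sequence, an alternative chosen after seeing the data, gave 0 lower by genotype under LPS and 0 downward in the difference. Depth limits the weak members: the median interval spans 0.31 either way on the log2 scale over all members and 0.47 under 10 CPM (LPS in knockout).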
